A study of Mus musculus with 6 samples.

Results

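The Sonic hedgehog pathway was followed through 9 genes in purified mouse retinal ganglion cells (RGCs), the neurons whose axons form the optic nerve. The genes are Shh, Ptch1, Smo, Gli1, Gli2, Gli3, Sufu, Hhip and Disp2. They were taken by their symbols as members of the pathway, with earlier results of these data known. All 9 were found among the 24060 genes of the count table. RNA was sequenced from 3 samples of embryonic RGCs (E18, embryonic day 18, replicates 1, 3 and 4) and 3 samples of early postnatal RGCs (P5, postnatal day 5, replicates 6, 8 and 9). All came from C57BL/6 mice with no transgene or treatment named, and the labels do not say how many animals went into a sample or whether samples are separate litters, so the p-values measure the spread between these samples. The cells were taken from dissociated retinas with antibodies, first removing macrophages and then holding cells that carry CD90 (Thy1). The study compared the 2 ages because RGCs extend axons readily at E18 and have lost this capacity by P5.

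Hedgehog signalling begins with a secreted ligand. The receptor Ptch1 holds the membrane protein Smo inactive, and binding of Shh to Ptch1 frees Smo, which acts through the primary cilium to release the Gli transcription factors from Sufu. Gli2 mainly activates transcription, Gli3 mainly represses it, and Gli1 is an activator that is itself a target of the pathway, as are Ptch1 and the decoy receptor Hhip. In the retina, differentiated RGCs are a source of Shh, and the dividing progenitors and the astrocytes of the optic nerve are cells known to respond to it.

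The deposited counts on genes summed to 81213639 to 114512853 reads per sample. Levels are given as CPM, the counts per 1000000 reads of the TMM-normalized library, and a positive log2 fold change marks a higher level at E18. Each edgeR adjusted p comes from the quasi-likelihood (QL) test with Benjamini-Hochberg adjustment over the 16449 genes that passed the expression filter of edgeR, a gene is called when this p is under 0.05, and SE is the standard error of the log2 fold change. RGC markers were abundant, with 12 genes summing to 6565 to 7495 CPM at E18 and 7492 to 8787 CPM at P5. Of these 12, 2 were called higher at E18 (Isl1 and Sncg) and 3 lower (Thy1, Nefl and Slc17a6). Among all genes tested, 43.4% were called in either direction. Thy1, by which the cells were held, had 212 to 312 CPM at E18 and 469 to 690 CPM at P5. Markers of other retinal cells differed between the libraries. The 12 markers of retinal progenitors summed to 176.5 CPM in E18 replicate 1, 106.6 in E18 replicate 3 and 30.7 in E18 replicate 4, against 21.1 to 28.7 CPM at P5. None of the 12 was at 0 in any sample, and 7 were called higher at E18, against 20.8% of all genes tested. The 12 markers of dividing cells followed the same order at E18 with 326, 128 and 77.5 CPM, against 56.5 to 73.4 at P5. Amacrine markers (8 genes) were highest in E18 replicate 3 with 199 CPM, followed by 98.0 in replicate 1 and 16.4 in replicate 4, against 19.9 to 28.7 at P5. Markers of endothelium and pericytes (6 genes) summed to 71.2, 63.9 and 15.3 CPM in the E18 samples and to 10.7 to 15.2 CPM at P5. Kdr made up most of these E18 sums (69.5, 62.9 and 14.1 CPM), while Pecam1 and Rgs5 of the same list were called lower at E18 and Cldn5 and Cdh5 were near 0. Markers of Müller glia and astrocytes (12 genes) summed to 543 to 639 CPM at E18 and 571 to 616 CPM at P5, with 2 called higher at E18 (Glul and Vim), 3 lower (Aldoc, Clu and Dkk3), and Gfap and Pax2 too low to be tested. Calls in either direction made up 43.4% of all genes tested.

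Of the 9 genes, all of which passed the expression filter, 5 were called higher at E18 (Smo, Sufu, Gli1, Gli2 and Gli3), none was called lower, and 4 were not called (Shh, Ptch1, Hhip and Disp2). Over all genes tested, 43.4% were called in either direction and 20.8% were called higher at E18. The median log2 fold change of the 9 genes was 0.56, against 0.00 over all genes tested. In 4 of the 9, the values of the 2 ages did not overlap, which was the case for 56.1% of all genes tested. The call of Smo held in every one of 11 alternative fits, whereas those of the 3 Gli genes and of Sufu were lost in some of them. Without E18 replicate 1, P5 replicate 6 or P5 replicate 9, Smo was the 1 member of the 9 still called. In bulk RNA, fewer cells of a type and less RNA per cell cannot be told apart.

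The DNA in front of the members that were called is shown because Smo, Sufu, Gli2 and Gli3 were called in the same direction. RefSeq promoter sequences (GRCm38.p6, the assembly of mm10) were found for 6 of the 9 genes, not for Shh, Gli1 and Disp2. The 250 bases before the start of the called members Smo, Sufu, Gli2 and Gli3 follow from 5′ to 3′ on the strand of the gene, with each CG dinucleotide in capitals.
Smo (chr6:29735247-29735496, plus strand): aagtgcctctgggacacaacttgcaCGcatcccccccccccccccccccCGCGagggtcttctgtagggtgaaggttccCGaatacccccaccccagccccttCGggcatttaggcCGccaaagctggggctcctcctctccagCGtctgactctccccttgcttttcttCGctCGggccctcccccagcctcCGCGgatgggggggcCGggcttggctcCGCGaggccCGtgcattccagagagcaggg
Sufu (chr19:46396646-46396895, plus strand): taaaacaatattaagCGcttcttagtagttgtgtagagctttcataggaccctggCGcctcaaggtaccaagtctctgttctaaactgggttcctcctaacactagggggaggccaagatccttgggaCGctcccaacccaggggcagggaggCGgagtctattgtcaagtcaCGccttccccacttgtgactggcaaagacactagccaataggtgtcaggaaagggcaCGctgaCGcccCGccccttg
Gli2 (chr1:119053620-119053869, minus strand): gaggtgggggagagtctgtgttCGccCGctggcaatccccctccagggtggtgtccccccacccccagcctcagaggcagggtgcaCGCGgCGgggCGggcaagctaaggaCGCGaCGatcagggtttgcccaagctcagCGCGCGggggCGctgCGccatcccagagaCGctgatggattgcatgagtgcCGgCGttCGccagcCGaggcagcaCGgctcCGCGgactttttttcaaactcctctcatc
Gli3 (chr13:15463473-15463722, plus strand): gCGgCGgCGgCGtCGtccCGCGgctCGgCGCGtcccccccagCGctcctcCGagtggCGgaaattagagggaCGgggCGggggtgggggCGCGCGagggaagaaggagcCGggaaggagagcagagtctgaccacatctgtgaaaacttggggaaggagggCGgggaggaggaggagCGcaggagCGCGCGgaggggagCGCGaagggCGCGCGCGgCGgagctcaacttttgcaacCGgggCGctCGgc
These windows held 15, 8, 22 and 34 CG dinucleotides in Smo, Sufu, Gli2 and Gli3. The median over 32851 promoters was 6, with quartiles of 2 and 16, so that Smo and Sufu lay between the quartiles. The window of Gli3 lies in an intron of the longer annotated gene. The windows of Ptch1 and Hhip, which were not called, held 41 and 28. That of Ptch1 also lies in an intron of the longer annotated gene. The consensus bound by Gli proteins, GACCACCCA, was sought on both strands in the 250 bases before and 50 after the start. It was in none of the 6 promoters, also when 1 mismatch was allowed, against 0.253% of all promoters for the full match and 6.74% with up to 1 mismatch, and more distant sites were not examined.

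**Figure D1:**
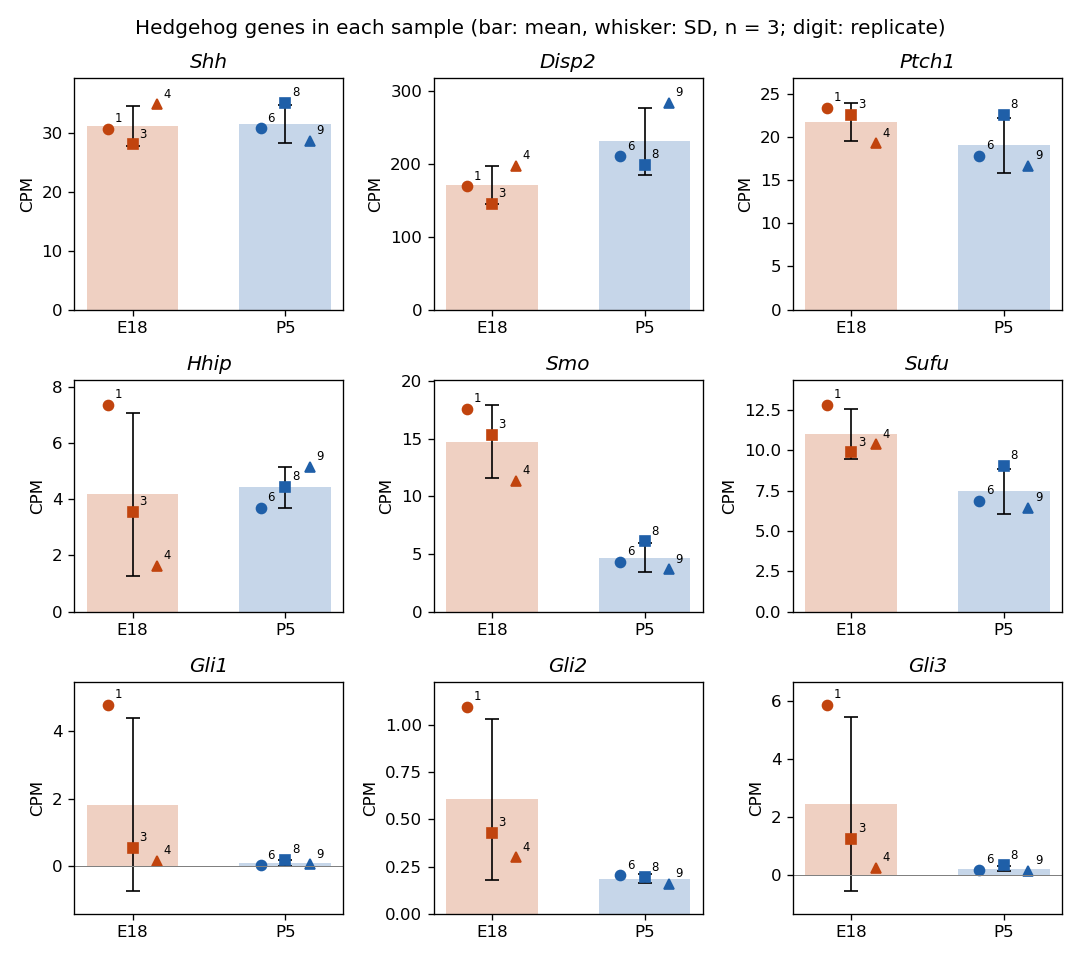
CPM (vertical axes, each with its own scale) of the 9 hedgehog genes in the 3 E18 and 3 P5 samples, with points numbered by replicate, bars for the mean and whiskers for the SD. Shh lay at 28.1 to 35.1 CPM in all 6 samples, Smo was higher in every E18 sample, and the Gli means at E18 were raised mainly by replicate 1.

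Shh, the ligand (ENSMUSG00000002633.4, chromosome 5 of mm10, 28456815 to 28467256, minus strand), had 30.8, 28.1 and 34.9 CPM in E18 replicates 1, 3 and 4 and 30.9, 35.1 and 28.7 CPM in P5 replicates 6, 8 and 9. The ages overlapped fully, and the highest sample exceeded the lowest by 1.25 times. The mean was 31.3 ± 3.42 CPM at E18 and 31.6 ± 3.27 CPM at P5 (SD, n = 3 each), with a log2 fold change of -0.01 (95% interval -0.29 to 0.26, edgeR adjusted p = 0.941). Between 2554 and 3458 reads per sample stood behind these values. An antisense gene, 9530036O11Rik, shares 446 bases of annotated exon with Shh and had 191 to 430 reads per sample, which a count without strand could not separate in the shared part. Gm26894, on the opposite strand, shares 361 bases of exon with Shh and was not among the counted genes. The other ligands of the family had few reads, with 3 to 13 for Ihh and 9 to 23 for Dhh in the 6 samples.

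Disp2 (ENSMUSG00000040035.14, chromosome 2, 118779719 to 118811293, plus strand) is a relative of Disp1, the membrane protein that releases lipid-bearing Shh from the cells that make it. It had 169, 145 and 197 CPM in E18 replicates 1, 3 and 4 and 210.5, 199 and 283 CPM in P5 replicates 6, 8 and 9. Every E18 sample lay below every P5 sample, though E18 replicate 4 and P5 replicate 8 almost met. The log2 fold change was -0.44 (SE 0.158), which missed the threshold (edgeR adjusted p = 0.0520). It was called lower at E18 by DESeq2 (adjusted p = 0.0264) and by edgeR's exact test (adjusted p = 0.0254), and over the 11 alternatives the adjusted p ranged from 0.0252 to 0.181. Without P5 replicate 9 the log2 fold change was -0.26.

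The ligand and release list held 9 genes, of which 8 were tested, 3 were called higher at E18 and none lower, with a median log2 fold change of 0.57. Of all genes tested, 20.8% were called higher at E18 and 43.4% in either direction. Scube1, one of the secreted proteins that can help carry Shh away from the cell, had 7.18, 7.15 and 6.41 CPM at E18 and 1.27, 1.27 and 0.776 CPM at P5. Its ages were far apart, with a log2 fold change of 2.64 (SE 0.235, edgeR adjusted p = 0.000207). Scube3 was also higher (log2 fold change 1.16, edgeR adjusted p = 0.0222), but lost its call without E18 replicate 3 or P5 replicate 6. Disp1, unlike Disp2, was called higher at E18, with 14.6, 14.5 and 15.2 CPM at E18 and 9.13, 8.54 and 8.02 CPM at P5 (log2 fold change 0.78, SE 0.117, edgeR adjusted p = 0.00137). In reads, Disp1 amounted to 7.69% to 9.97% of Disp2 at E18 and to 2.83% to 4.33% at P5. These shares are not divided by gene length, so they do not compare the transcript levels of Disp1 and Disp2. Scube2 was not called; its 3.51, 9.40 and 0.453 CPM in E18 replicates 1, 3 and 4 followed the order of the amacrine markers. Hhat, which attaches palmitate to Shh, had 2.49 to 4.39 CPM in the 6 samples and was not called (edgeR adjusted p = 0.235).

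Ptch1, the receptor (ENSMUSG00000021466.12, chromosome 13, 63508328 to 63573598, minus strand), had 23.4, 22.6 and 19.3 CPM in E18 replicates 1, 3 and 4 and 17.8, 22.6 and 16.7 CPM in P5 replicates 6, 8 and 9. The ages overlapped through P5 replicate 8, and the log2 fold change was 0.19 (95% interval -0.13 to 0.52, edgeR adjusted p = 0.307). In the fit without that sample it was 0.32, just short of the threshold (edgeR adjusted p = 0.0529).

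Hhip, the decoy receptor that binds Shh without passing on a signal (ENSMUSG00000064325.4, chromosome 8, 79965851 to 80058006, minus strand), had 7.34, 3.54 and 1.63 CPM in E18 replicates 1, 3 and 4 and 3.68, 4.44 and 5.15 CPM in P5 replicates 6, 8 and 9. The E18 values lay on both sides of the P5 values, in the order of the progenitor markers. The mean was 4.17 ± 2.91 CPM at E18 and 4.42 ± 0.734 CPM at P5 (SD, n = 3 each), and the log2 fold change of -0.09 (95% interval -1.10 to 0.93, edgeR adjusted p = 0.891) fell to -0.76 without E18 replicate 1 (edgeR adjusted p = 0.118). Gli1 and Hhip, both targets of the pathway, had fold changes of opposite sign in that fit, neither of them called.

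Smo, the transducer in the membrane (ENSMUSG00000001761.7, chromosome 6, 29735503 to 29761365, plus strand), had 17.6, 15.3 and 11.3 CPM in E18 replicates 1, 3 and 4 and 4.30, 6.08 and 3.65 CPM in P5 replicates 6, 8 and 9. The lowest E18 sample stood well above the highest P5 sample. The mean was 14.7 ± 3.15 CPM at E18 and 4.68 ± 1.26 CPM at P5 (SD, n = 3 each), 3.15 times higher at E18, with a log2 fold change of 1.66 (SE 0.231, edgeR adjusted p = 0.00105). Over the 11 alternatives the log2 fold change stayed between 1.5 and 1.88, and without E18 replicate 1 it was 1.51 (edgeR adjusted p = 0.00410). The E18 samples were in the order of their progenitor markers, and the part of other cells in the Smo values was not tested.

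The co-receptors that present Shh to Ptch1 did not move together. In the list of 8 receptors and co-receptors, all were tested, 5 were called higher at E18, 1 was called lower, and the median log2 fold change was 0.86. The shares over all genes tested were 20.8% called higher at E18 and 43.4% called in either direction. Cdon had 45.0 to 49.6 CPM at E18 and 20.9 to 34.3 CPM at P5 (log2 fold change 0.81, edgeR adjusted p = 0.00547). Lrp2, an endocytic receptor that can take up Shh, was higher as well (log2 fold change 1.04, edgeR adjusted p = 0.00845). Gas1 had 9.55, 3.74 and 2.84 CPM in E18 replicates 1, 3 and 4 and 1.34 to 2.397 CPM at P5 (log2 fold change 1.43, edgeR adjusted p = 0.0305), and its call was lost without E18 replicate 1 (log2 fold change 0.73), P5 replicate 6 or P5 replicate 9. Boc, the co-receptor through which ipsilaterally projecting RGCs are repelled by Shh at the optic chiasm, went in the opposite direction, with 0.711, 0.285 and 0.243 CPM at E18 and 2.98, 3.78 and 2.09 CPM at P5. Its log2 fold change was -2.85 (SE 0.436, edgeR adjusted p = 0.00154), and the ages did not overlap. The calls of Cdon, Lrp2 and Boc held in all 11 alternatives.

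Sufu, the cytoplasmic inhibitor that binds the Gli proteins (ENSMUSG00000025231.17, chromosome 19, 46396896 to 46488804, plus strand), had 12.8, 9.88 and 10.4 CPM in E18 replicates 1, 3 and 4 and 6.89, 9.03 and 6.45 CPM in P5 replicates 6, 8 and 9. The ages did not overlap, though E18 replicate 3 was close to P5 replicate 8. The log2 fold change was 0.56 (SE 0.175, edgeR adjusted p = 0.0301). Among 6 fits without a sample, 1 kept the call, that without P5 replicate 8 (log2 fold change 0.71), and the adjusted p rose to 0.121 without E18 replicate 1. Around Sufu, 19 genes of cytoplasmic transduction were all tested, with 5 higher, 3 lower, 11 not called and a median log2 fold change of 0.00. Among all genes tested, 43.4% were called in either direction. Stk36, the relative of the fly kinase Fused, had the highest fold change called in that list (log2 fold change 0.90, edgeR adjusted p = 0.00154), followed by Efcab7, which tethers the Evc proteins in the cilium (0.67, edgeR adjusted p = 0.0137). Both calls held in all 11 alternatives. The kinases Csnk1d and Gsk3b, which phosphorylate Gli proteins, were also higher, by 0.49 and 0.33 on the log2 scale (edgeR adjusted p = 0.0225 and 0.0168). The call of Csnk1d was lost without E18 replicate 3 or 4 or P5 replicate 6 or 9, and that of Gsk3b without E18 replicate 1 or 3 or P5 replicate 6. Protein kinase A restrains the pathway. Its catalytic subunit Prkaca had 146 to 162 CPM at E18 and 163 to 193 CPM at P5 and was not called (log2 fold change -0.19, edgeR adjusted p = 0.130). The catalytic subunit Prkacb was lower at E18 with 295 to 348 CPM against 503 to 605 CPM at P5 (log2 fold change -0.83, edgeR adjusted p = 0.000723). The regulatory subunit Prkar1a (-0.28) and the receptor kinase Adrbk1 (-0.40), which phosphorylates Smo, were lower too, and both calls were lost without E18 replicate 1, E18 replicate 3 or P5 replicate 9, that of Prkar1a also without E18 replicate 4 or with no filter on low counts. Kif7, the kinesin of the ciliary tip, had 1.12 to 2.79 CPM in the 6 samples and a log2 fold change of -0.09 (edgeR adjusted p = 0.847).

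The 3 Gli genes were present at low levels and unevenly. Gli1 (ENSMUSG00000025407.7, chromosome 10, 127329882 to 127341974, minus strand) had 4.77, 0.544 and 0.155 CPM in E18 replicates 1, 3 and 4 and 0.0226, 0.183 and 0.0532 CPM in P5 replicates 6, 8 and 9. E18 replicate 4 fell within the P5 values, and replicate 1 stood far above all other samples. In reads these were 396, 61 and 14 at E18 and 2, 18 and 5 at P5, so that replicate 1 alone held 84.1% of the E18 reads of Gli1. The exons of Gli1 share 62 bases with Arhgap9, which had 0 to 10 reads per sample. They also share 265 bases with the antisense gene Gm47200, which was not among the counted genes. The log2 fold change was 4.35 (SE 1.25, edgeR adjusted p = 0.0223), which became 2.0 without E18 replicate 1 (edgeR adjusted p = 0.0846). The call was also lost without P5 replicate 6 (edgeR adjusted p = 0.0930) or P5 replicate 9 (0.0768).

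Gli3 (ENSMUSG00000021318.15, chromosome 13, 15463235 to 15730026, plus strand) had 5.87, 1.24 and 0.243 CPM in E18 replicates 1, 3 and 4 and 0.192, 0.335 and 0.149 CPM in P5 replicates 6, 8 and 9. The pattern was that of Gli1, with E18 replicate 4 inside the P5 values and 75.2% of the E18 reads in replicate 1. The log2 fold change of 3.43 (SE 0.978, edgeR adjusted p = 0.0216) became 1.73 without E18 replicate 1 (edgeR adjusted p = 0.0740), and the call was also lost without P5 replicate 6 or P5 replicate 9.

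Gli2 (ENSMUSG00000048402.14, chromosome 1, 118834132 to 119053619, minus strand) had 1.10, 0.428 and 0.298 CPM in E18 replicates 1, 3 and 4 and 0.203, 0.193 and 0.159 CPM in P5 replicates 6, 8 and 9. It was the only Gli gene whose ages did not overlap. These were 91, 48 and 27 reads at E18 and 15 to 19 reads at P5. The log2 fold change of 1.70 (SE 0.506, edgeR adjusted p = 0.0255) became 0.98 without E18 replicate 1 (edgeR adjusted p = 0.102), and the call was lost as well without P5 replicate 6, 8 or 9.

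Summed over the 3 Gli genes, E18 replicates 1, 3 and 4 had 11.7, 2.21 and 0.696 CPM, against 0.361 to 0.711 CPM at P5. The order of the E18 samples is that of their progenitor and dividing-cell markers given above. The part of other cells in the Gli values was not tested. Within the list of Müller glia and astrocytes, Gfap and Pax2 had 0.0357 to 0.117 CPM and 0.0203 to 0.147 CPM in the 6 samples, whereas Glul had 313 to 326 CPM at E18 and 230.4 to 273 CPM at P5. Slc1a3, which glia and late progenitors share, had 16.2, 2.80 and 0.475 CPM at E18 and 1.11 to 1.78 CPM at P5.

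**Figure D2:**
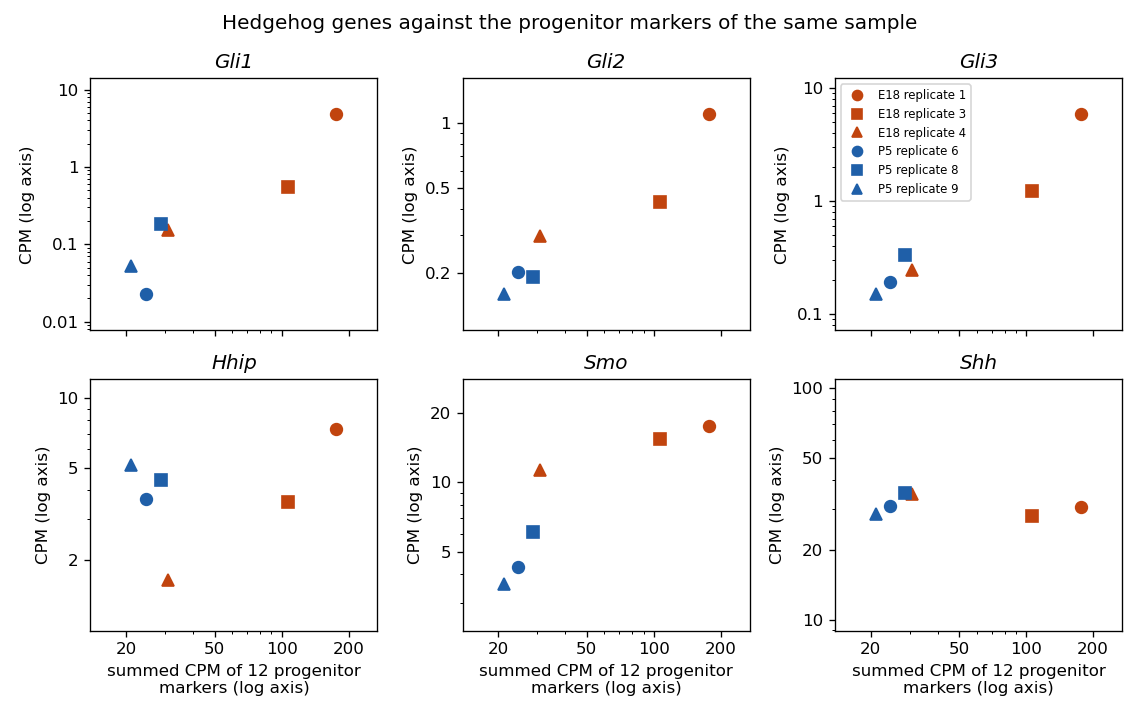
CPM of 6 hedgehog genes (vertical log axes) against the summed CPM of 12 progenitor markers in the same sample (horizontal log axis), 1 point per sample. The Gli genes were highest in E18 replicate 1 and next in E18 replicate 3, Shh lay at 28.1 to 35.1 CPM, and the E18 samples of Smo followed the order of the marker sums. Sox2 alone gave 69.3 CPM of the marker sum in E18 replicate 3.

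Likeness across the 6 samples was described with Pearson's r of log2 CPM, with n = 6 and no test. With a minimum mean of 1 CPM, the genes most like Gli1 were Cdc20 (r = 0.999), a regulator of mitotic exit, Znhit6 (r = 0.991) and Bub1b (r = 0.991), a kinase of the spindle checkpoint. Gli1 had 2, 18 and 5 reads in P5 replicates 6, 8 and 9, so its P5 points in each r rest on few reads. Cdc20 was in the list of dividing-cell markers and had 6.18, 2.20 and 1.23 CPM at E18 and 0.553 to 1.29 CPM at P5. Those most like Ptch1 were Fgd6 (r = 0.992), Cntrl (r = 0.987) and Zbtb1 (r = 0.987). Those most like Shh were Ccdc176 (r = 0.992), Tas1r1 (r = 0.989) and Clcf1 (r = 0.969), over the 1.25-fold range of Shh. The 6 points of each r fall into the 2 ages and share the marker differences between libraries given above, and these are the highest values among 13425 or more genes searched. Among the 9 genes, Gli2 and Gli3 were most alike (r = 0.96), followed by Gli1 and Gli3 (0.95) and by Smo and Sufu (0.94), whereas Shh had an r between -0.44 and 0.27 with the other members.

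The target list held 14 genes, of which 10 were tested, 6 were called higher at E18 and none lower, with a median log2 fold change of 0.98. Beside these counts, 20.8% of all genes tested were called higher at E18 and 43.4% in either direction. Gli1, Ccnd1, Sox9, Foxm1 and Mycn were among the 6 targets called. Ccnd1, the cyclin of G1, had 146, 34.5 and 14.2 CPM in E18 replicates 1, 3 and 4 and 8.83, 10.9 and 5.54 CPM at P5 (log2 fold change 2.94, edgeR adjusted p = 0.0129). Without E18 replicate 1 the log2 fold change was 1.54 (edgeR adjusted p = 0.0168), and Ccnd1 was not called when P5 replicate 6 or 9 was left out. Sox9, also a gene of progenitors and Müller glia, had 1.82, 0.580 and 0.188 CPM at E18 and 0.159 to 0.192 CPM at P5 (log2 fold change 2.32, edgeR adjusted p = 0.0294), and lost its call without E18 replicate 1 (log2 fold change 1.18) or any of the P5 samples. Foxm1, a factor of dividing cells, had 9.40, 4.16 and 3.53 CPM at E18 and 2.09 to 3.52 CPM at P5 (log2 fold change 1.06, edgeR adjusted p = 0.0491), and its call was lost in 6 of the 11 alternatives, among them that without E18 replicate 1 (0.50). Mycn was even across the E18 samples, with 68.6 to 73.0 CPM against 43.7 to 62.0 CPM at P5 (log2 fold change 0.43, edgeR adjusted p = 0.0262), and its call was lost in 5 of the alternatives. Hes1, which is also in the progenitor list, and Bcl2 were tested and not called, and Ccnd2, Foxf1, Foxf2 and Nkx2-2 had too few reads to be tested.

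Hedgehog signals are passed on in the primary cilium. All 20 genes of ciliary trafficking were tested, 2 were called higher at E18 (Ift140 and Mks1), 2 lower (Wdr35 and Bbs4) and 16 were not called, with a median log2 fold change of 0.07. That is 20% called, against 43.4% of all genes tested. Ift88, a core protein of intraflagellar transport, had 70.0 to 76.9 CPM at E18 and 58.5 to 71.0 CPM at P5. The largest called difference was that of Mks1, a protein of the transition zone, with a log2 fold change of 0.54 (edgeR adjusted p = 0.0146), which was not called without E18 replicate 1 or P5 replicate 6. Over all lists, 64 of 69 pathway genes were tested, 22 were called higher at E18 and 6 lower, and the median log2 fold change was 0.21. The share called was 43.8%, against 43.4% of all genes tested. The calls of 9 of these 28 genes held in all 11 alternatives, 7 higher at E18 (Scube1, Smo, Lrp2, Stk36, Cdon, Disp1 and Efcab7) and 2 lower (Boc and Prkacb).

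**Figure D3:**
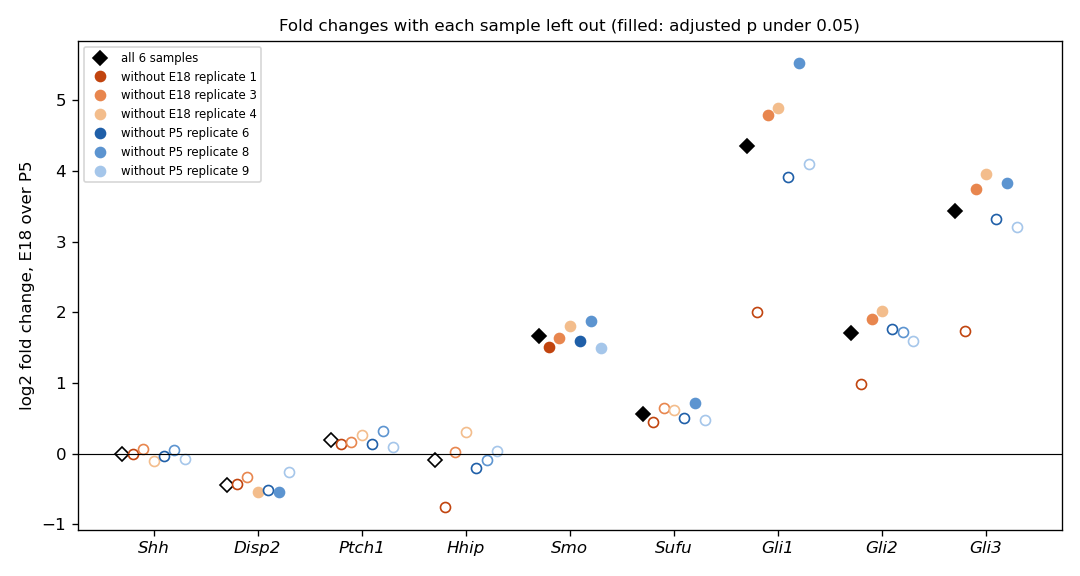
Log2 fold change of E18 over P5 (vertical axis) of the 9 hedgehog genes with all 6 samples (diamonds) and with each sample left out in turn (circles), filled where the adjusted p was under 0.05. Smo stayed filled throughout, and Gli1, Gli2 and Gli3 dropped to 2.0, 0.98 and 1.73 without E18 replicate 1.

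Levels of different genes were compared per kilobase of annotated exon. Disp2 and Shh were highest at both ages, with 17.9 ± 2.72 and 10.99 ± 1.203 CPM per kilobase at E18 and 24.2 ± 4.799 and 11.1 ± 1.15 at P5 (SD, n = 3 each), and their samples did not overlap. Smo was next at E18 (2.62 ± 0.561). At P5 it came after Ptch1 (1.34 ± 0.222) and Sufu (0.970 ± 0.179), with 0.832 ± 0.225 CPM per kilobase, and the samples of Sufu and Smo overlapped while the lowest of Ptch1 (1.176) met the highest of Sufu (1.174). At E18, Ptch1 (1.53 ± 0.155) and Sufu (1.43 ± 0.204) did not differ beyond their spread. Hhip followed at both ages, with 0.460 ± 0.320 at E18 and 0.487 ± 0.0809 at P5. The Gli genes had the lowest means, with 0.365 for Gli1, 0.256 for Gli3 and 0.0885 for Gli2 at E18 and 0.0172 to 0.0270 at P5, and their order was within the spread at both ages. At E18, Gli1 and Hhip overlapped, and in replicate 1 Gli1 (0.956) was above Hhip (0.809). With the longest transcript as the length, Ptch1 and Sufu changed places at E18.

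**Figure D4:**
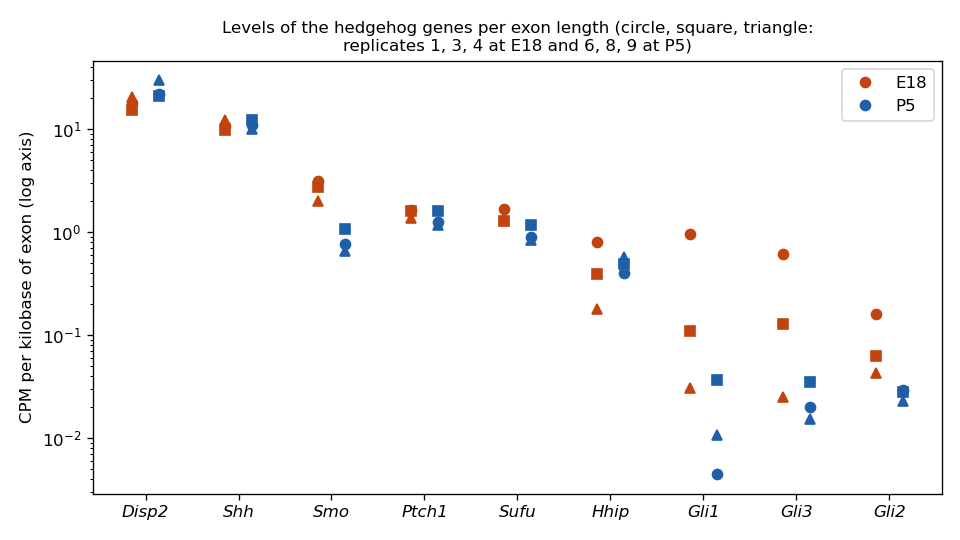
CPM per kilobase of exon (log axis) of the 9 hedgehog genes in each sample, ordered by the mean at E18. Disp2 and Shh lay at 9.88 CPM per kilobase or above in every sample, and the Gli genes at 0.956 or below.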

How the data were processed

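RNA-seq of immunopanned RGCs was compared between 3 E18 and 3 P5 samples, grouped by their titles. In the count table, the name for E18 replicate 1 includes 2 and 5 as well, and whether it pools preparations is not stated. Libraries were depleted of ribosomal RNA per the methods, whereas the labels name polyA RNA. The authors aligned paired reads to mm10 with STAR and used HT-seq to count reads per RefSeq gene, and the strand setting is not given in the sources used here. The authors deposited raw counts, which were used here. The normalized counts (a signal scaled by library size), the log2 fold changes, the p-values and the rank score that the authors deposited were not used.

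After the expression filter of edgeR (version 4.0.16, R 4.3.3) and TMM normalization, the ages were compared by its quasi-likelihood test, and p-values were adjusted by Benjamini-Hochberg over 16449 genes, and the script was tested on simulated data. Intervals are 95% and use the degrees of freedom of that test. Replicates differed by more than sampling noise (chi-square per degree of freedom 30.5 to 141). The members, gene lists and marker lists were chosen with earlier results of these data known. The genes named are the members, the called genes of the lists (at most 8 a list), the 3 genes most like Shh, Ptch1 and Gli1, and defining or uncalled genes of the lists given with their values, and some genes of the lists are counted but not reported here by name. Lengths and coordinates come from GENCODE vM21 (mm10), matched by symbol. Alternatives were upper-quartile normalization, DESeq2 1.42.0, edgeR's exact test, 2 other filters and the omission of each sample.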

Additional observations from a re-analysis of the deposited data

How the results depend on the processing

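Over all genes, 7135 were called with all samples, and the fits that left out each sample called 4575 (without E18 replicate 3) to 8796. Of the 9 hedgehog genes, 5 were called with all samples and 1 to 5 in the fits without a sample. With a filter of at least 1 CPM in 3 samples, 3 members were called (Disp2, lower at E18, with Smo and Sufu), and the Gli genes are then not tested. Of the pathway genes, 28 were called with all samples and 12 to 35 in the fits without a sample, with 14 without E18 replicate 1, 17 without E18 replicate 3, 12 without P5 replicate 6 and 16 without P5 replicate 9. Among the 32 genes followed through the alternatives, 271 of 348 values kept direction and side of the threshold, 65 lost the call and 6 gained it, all 6 of them for Disp2. The direction reversed for the uncalled Shh (0.00, 0.06 and 0.05 without E18 replicate 1, E18 replicate 3 and P5 replicate 8, with a range of -0.10 to 0.06 over the fits without a sample) and Hhip (0.02, 0.30 and 0.04 without E18 replicate 3, E18 replicate 4 and P5 replicate 9, with a range of -0.76 to 0.30). With the longest transcript as length, the E18 levels per kilobase became 2.10 for Ptch1, 3.90 for Smo, 2.44 for Sufu and 25.8 for Disp2. The cause of the losses without a sample was not tested. No paired analysis was possible because the ages share no replicate number. Depth limits the Gli genes at P5, where Gli1 rests on 25 reads in all.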
